A study of Drosophila melanogaster and Drosophila arizonae and Drosophila mojavensis with 18 samples.

Results

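Amino acid breakdown was followed through 10 genes, 8 of *D. melanogaster* and 2 of *D. mojavensis*, out of 32419 genes in the tables of both species and 43479 in the tables of all 3 species sequenced. The members were taken by name: Sardh, Hn, hgo, Oat, slgA, Gdh, Got1 and Got2 in *D. melanogaster*, and GI23785 (sarcosine dehydrogenase) and GI23443 (aminomethyltransferase) in *D. mojavensis*. The names of the last 2 come from the study's annotation table, which lists genes that the authors had called as changed in these same libraries. The direction, size, rank and calls of these 2 genes are therefore not independent evidence.

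Poly(A) RNA of whole larvae was sequenced after 24 h on 1 of 3 isocaloric diets. Per 200 ml of water, HPLS (high protein, low sugar) had 32 g of yeast and 8 g of sucrose, EPS (equal protein and sugar) had 20 g of each, and LPHS (low protein, high sugar) had 8 g of yeast and 32 g of sucrose. All larvae were wild type, were moved to the diets early in the third instar, came from stocks on banana-opuntia medium and were pooled by vial. Each diet had 2 libraries per species, labelled replicate 1 and replicate 2. The flies were of 2 isofemale strains per species. Whether these strains are the 2 replicates is not stated in the sources used here, so strain and library batch cannot be told apart.

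Animals break amino acids down by first moving or removing the amino group and then feeding the carbon skeleton into central metabolism. Sarcosine dehydrogenase returns methylated glycine to glycine, and the glycine cleavage system, of which aminomethyltransferase is a part, passes the carbon of glycine to folate. Phenylalanine is degraded through tyrosine and homogentisate, ornithine and proline through glutamate, and the transaminases and glutamate dehydrogenase link these routes to the citric acid cycle. In insects much of this work is done by the fat body.

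The libraries held between 13219689 and 32807690 fragments in genes in *D. melanogaster* and between 6819502 and 9910492 in *D. mojavensis*. Values below are normalized counts, that is the deposited value divided by a TMM library factor, and differences are in log2 of the normalized count plus 1. HPLS replicate 2 of *D. melanogaster* stood apart: it was the deepest library and listed Lsp1beta, Lsp1gamma and Lsp2, which encode larval serum proteins of the fat body, at 0. The summed level of 6 salivary glue genes ranged from 3561 to 38106 in replicate 1 and from 78453 to 259916 in replicate 2, and was lower on LPHS than on HPLS for 6 of 6 glue genes in both replicates, though 0 passed the test. The sum of 6 fat body markers ranged from 1.12e+06 to 1.42e+06 in replicate 1 and from 712336 to 1.61e+06 in replicate 2. Of the 6 LPHS-HPLS differences, 3 were above 0 (0 in both replicates) and 3 below 0, with a median of 3.50 and a highest of 9.51. That median rests on Lsp1beta, Lsp1gamma and Lsp2, at 0 in HPLS replicate 2. From HPLS to LPHS the sum went from 1.42e+06 to 1.12e+06 in replicate 1 and from 712336 to 1.52e+06 in replicate 2. Lsp1alpha (-1.44) and Fbp2 (-2.03) were the 2 that were lower on LPHS than on HPLS in both replicates. The sum of 5 midgut markers ranged from 50268 to 72019 and from 60429 to 86461, highest on LPHS in both replicates, with 5 of 5 LPHS-HPLS differences above 0 (3 in both replicates) and a median of 0.73. The sum of 4 muscle markers ranged from 530255 to 687526 and from 282358 to 525770, with 4 of 4 differences above 0 (3 in both replicates). None of these fat body, midgut or muscle genes passed the limma test between LPHS and HPLS. Of 5 markers of adult reproductive tissue, SP was at 0 in every library, and Yp1 and Yp2 reached at most 1.10 and 5.14. Yp3 had means of 1069 on HPLS, 659 on EPS and 1240 on LPHS, and Mst84Da had 49.5, 45.0 and 55.7. The sum of the 5 ranged from 326 to 399 in replicate 1 and from 1090 to 2197 in replicate 2. The part of these tissue markers in the results below was not tested. In whole larvae, fewer cells of a type and less RNA per cell cannot be told apart.

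Sarcosine dehydrogenase was lower at each step from HPLS to EPS to LPHS in both species. Yeast falls as sucrose rises over these diets, so less protein and more sugar cannot be told apart. In *D. melanogaster*, Sardh (FBgn0034276, chromosome 2R, 17753555 to 17756422, minus strand, Release 6) had 661 normalized counts on HPLS, 351 on EPS and 242 on LPHS in replicate 1. In replicate 2 it had 1137, 566 and 384. Both LPHS libraries were below both HPLS libraries, and the order HPLS, EPS, LPHS was the same in both replicates, with replicate 2 above replicate 1 on every diet. The means were 899 ± 336 on HPLS, 458 ± 152 on EPS and 313 ± 99.9 on LPHS (SD, n = 2), so that the LPHS mean was 34.8% of the HPLS mean. The LPHS-HPLS difference was -1.51 (SE 0.40), made up of -1.45 in replicate 1 and -1.57 in replicate 2.

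That difference did not pass the test across all genes. The limma adjusted p was 1 with diet alone and 0.113 with a replicate block, although in the latter Sardh was the 5th of 12324 genes by p. The difference of EPS from HPLS was -0.96 and that of LPHS from EPS was -0.55, neither passing the test. With all 6 libraries Sardh passed in 1 fit, the trend on grams of sucrose with the replicate block, where the limma adjusted p was 0.0401 and the difference over the 24 g span was -1.51 (SE 0.15). With diet alone the trend had an adjusted p of 1. The call on the blocked trend was lost when any 1 of the 5 libraries other than LPHS replicate 1 was left out. The blocked trend itself stayed between -1.63 and -1.40 in the 6 fits that each left out 1 library. In the same fits the blocked LPHS-HPLS difference of Sardh stayed between -1.56 and -1.47.

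**Figure D1:**
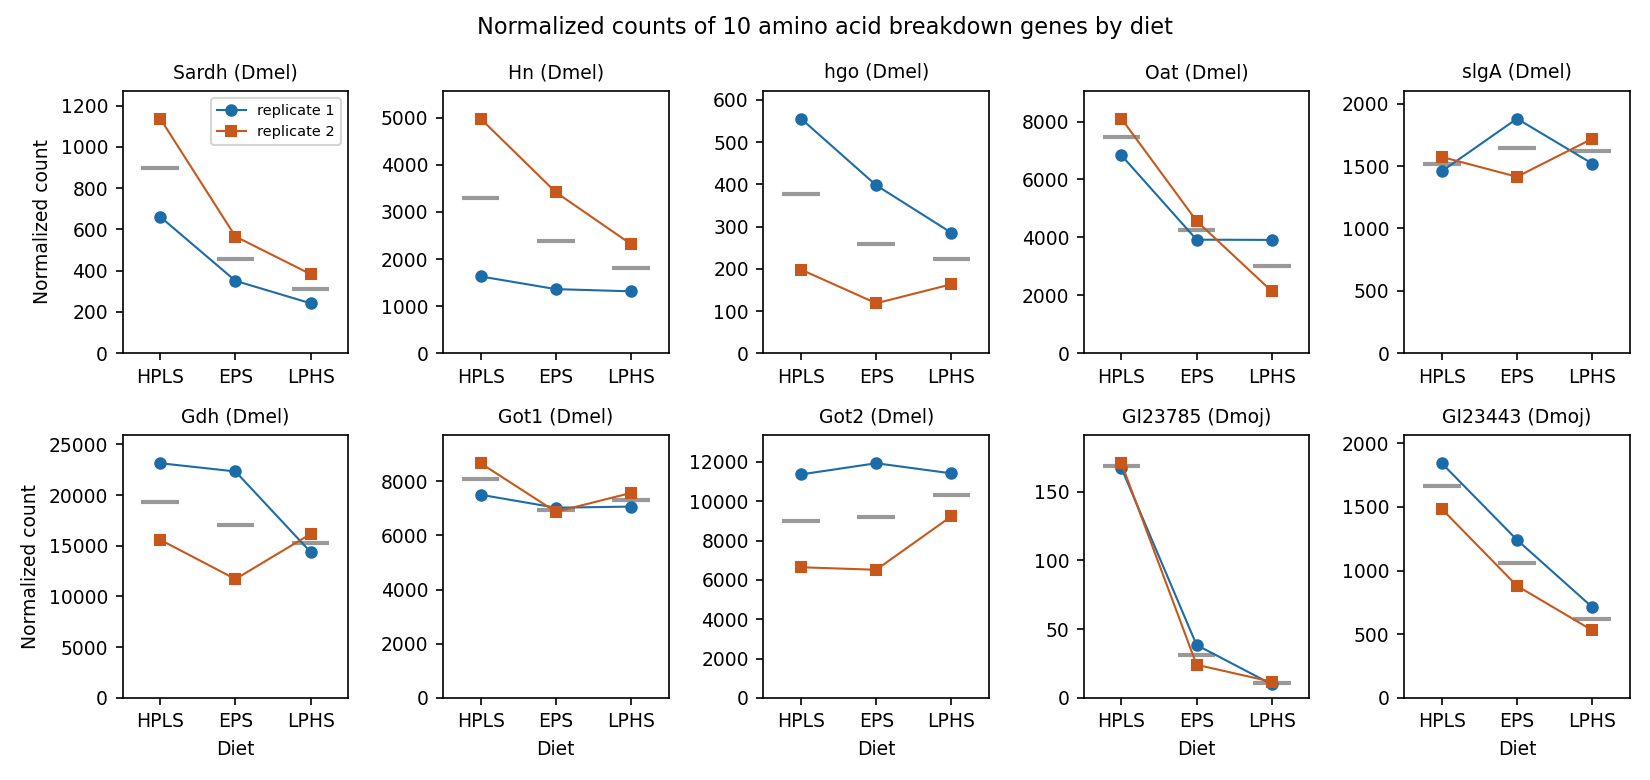
Normalized counts (y axis, from 0) of the 10 genes on the HPLS, EPS and LPHS diets (x axis), with circles for replicate 1, squares for replicate 2 and grey bars for the mean of the 2. GI23785 goes from 167 and 171 on HPLS to 9.85 and 11.7 on LPHS. Sardh falls from HPLS to EPS to LPHS in both replicates, and slgA, Got1 and Got2 do not.

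In *D. mojavensis*, the ortholog of Sardh by the study's table, GI23785 (FBgn0146510), fell 15.7-fold in the mean from HPLS to LPHS. It had 167 normalized counts on HPLS, 38.4 on EPS and 9.85 on LPHS in replicate 1. Replicate 2 gave 171, 24.0 and 11.7. The 3 diets did not overlap, and the 2 HPLS libraries were nearly equal, with 167 and 165 fragments. Each LPHS library held 11 fragments of this gene, so counting error is larger there than on the other diets. The LPHS-HPLS difference was -3.86 (SE 0.30), with -3.95 in replicate 1 and -3.76 in replicate 2, and the limma adjusted p was 0.0403. Ranked by p, GI23785 was number 1 of the 9724 genes tested, and by size of the decrease number 7. These ranks are not independent of the study's call on the same libraries.

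The call on GI23785 without the block was close to the threshold. The edgeR quasi-likelihood test gave an adjusted p of 0.0514, and the limma adjusted p without HPLS replicate 1, HPLS replicate 2, LPHS replicate 1 or LPHS replicate 2 was 0.286, 0.411, 0.0897 and 0.0927. The difference in those fits stayed between -3.95 and -3.74. With the replicate block the limma adjusted p was 0.00216, and at most 0.00465 in the 6 fits that each left out 1 library. The first step, EPS-HPLS, was -2.43 and in limma passed only with the block (limma adjusted p 0.385 without and 0.037 with it), and that call was lost without HPLS replicate 2 (0.058) or EPS replicate 2 (0.0512). LPHS-EPS was -1.42 and did not pass (limma adjusted p 1 and 0.323).

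GI23443 (FBgn0146169), annotated as aminomethyltransferase, the T protein of the glycine cleavage system, had 1844, 1242 and 713 normalized counts on HPLS, EPS and LPHS in replicate 1. In replicate 2 the values were 1485, 880 and 531. The order of diets was the same in both replicates, the HPLS and LPHS libraries did not overlap, and replicate 1 was above replicate 2 on every diet. The LPHS mean, 622 ± 129, was 37.4% of the HPLS mean, 1664 ± 254 (SD, n = 2). The LPHS-HPLS difference was -1.43 (SE 0.25), nearly equal in replicate 1 (-1.37) and replicate 2 (-1.48). It did not pass with diet alone (limma adjusted p 0.179) and passed with the replicate block (0.00359), where it also passed in each of the 6 fits that left out 1 library. EPS-HPLS was -0.66 and LPHS-EPS was -0.76, and neither passed in limma with or without the block.

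Both *D. mojavensis* genes were named from the study's calls on these libraries, so their counts beside all genes in part restate that choice. Of the 2 genes, 1 was called in LPHS-HPLS with diet alone, where 0.0206% of all genes tested were called, and 2 with the block, where 5.51% were. On the sucrose trend 1 of 2 was called with diet alone (GI23785, limma adjusted p 0.0295), against 0.123% of all genes, and 2 of 2 with the block (limma adjusted p 0.00147 for GI23785 and 0.00121 for GI23443), against 9.23%. In EPS-HPLS 0 of 2 were called by limma with diet alone, against 0% of all genes, and 1 of 2 with the block, against 0.185%. In LPHS-EPS limma called 0 of 2 with or without the block, against 0% of genes in either. Both genes had an unadjusted p under 0.05 in each of these comparisons. So did 212 to 997 of all genes in the 3 pairwise comparisons with diet alone and 775 to 2204 with the block. On the trend so did 1322 with diet alone and 2475 with the block. In EPS-HPLS with diet alone the quasi-likelihood test of edgeR also called 0 of 2 and DESeq2 called 1, against 0% and 0.144% of all genes. In LPHS-EPS both tools called 0 of 2 without the block, against 0% and 0.0206%. Both genes were lower on LPHS in both replicates, as were 33.0% of all *D. mojavensis* genes tested. Both followed the order HPLS, EPS, LPHS in both replicates, as did 10.9%, and in both the LPHS libraries lay below both HPLS libraries, as in 21.1%.

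The *D. melanogaster* ortholog of GI23443 is CG6415, which had 2785, 2646 and 2234 normalized counts on HPLS, EPS and LPHS in replicate 1 and 3400, 2353 and 2524 in replicate 2. Its LPHS-HPLS difference was -0.37 (limma adjusted p 1, and 0.7 with the block). The difference in *D. mojavensis* minus that in *D. melanogaster* was -1.05 for this pair and -2.35 for GI23785 and Sardh. In each pair both *D. mojavensis* replicates lay below both *D. melanogaster* replicates, and an exact permutation test (two-sided) gave 0.333, the smallest p that this test can give with 2 replicates against 2, so it cannot pass 0.05 here. The *D. mojavensis* genes were named from calls on these libraries and their *D. melanogaster* orthologs were not. The larger difference in *D. mojavensis* is therefore not independent evidence. No model with both species in 1 fit was run, since their tables were scaled separately. With a pseudocount of 5 the difference between GI23785 and Sardh was -1.97.

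**Figure D2:**
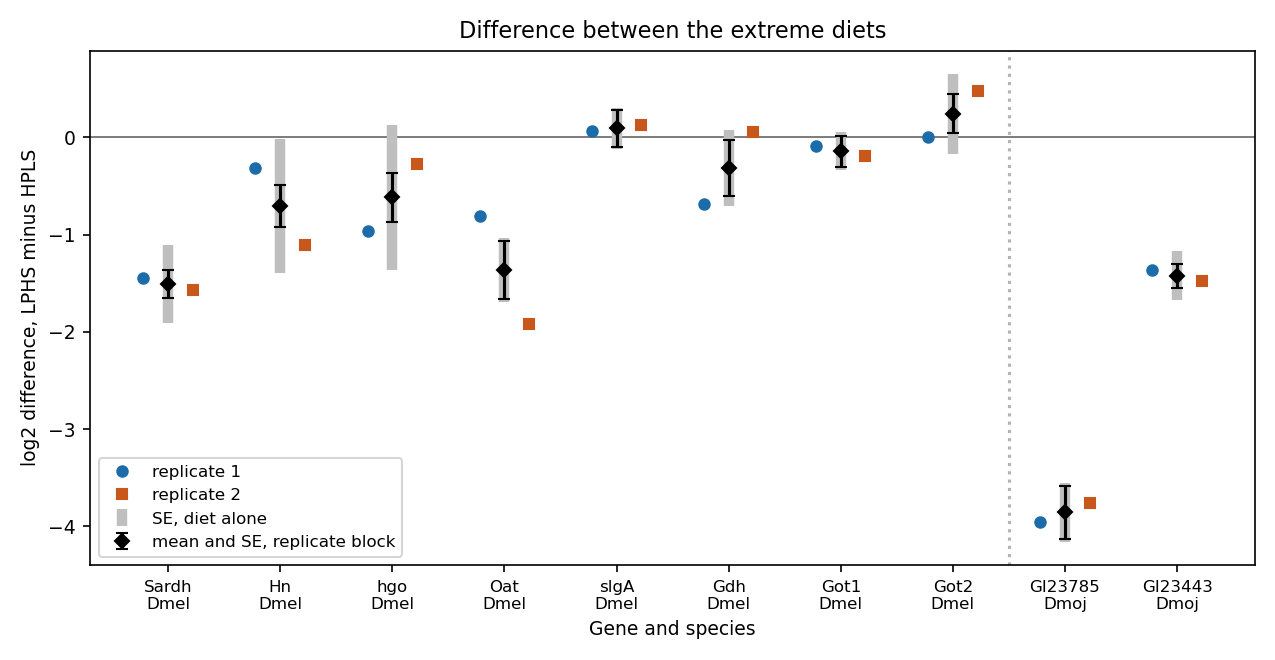
The LPHS minus HPLS difference (y axis, log2) of each gene (x axis), with circles for replicate 1, squares for replicate 2, diamonds for the mean, thin bars for the SE with the replicate block and thick grey bars for the SE with diet alone. The replicates lie close together for Sardh (-1.45 and -1.57), GI23785 and GI23443, and apart for Oat (-0.80 and -1.92).

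Neither of the 2 enzymes of phenylalanine and tyrosine breakdown passed the test between diets. Hn (FBgn0001208, chromosome 3L, 7760453 to 7763166, plus strand), the phenylalanine hydroxylase that makes tyrosine, had 1632, 1362 and 1315 normalized counts on HPLS, EPS and LPHS in replicate 1. The corresponding values of replicate 2 were 4982, 3419 and 2318. The order of diets was the same in both, but LPHS of replicate 2 was above HPLS of replicate 1, so the diets overlapped. The LPHS-HPLS difference was -0.71 (SE 0.69), with -0.31 in replicate 1 and -1.10 in replicate 2 (limma adjusted p 1, and 0.536 with the block). Without the block and without HPLS replicate 2 the difference was 0.07, and without LPHS replicate 1 the blocked difference was -1.04.

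The gene hgo (FBgn0040211, chromosome 2L, 11136393 to 11138565, plus strand) encodes homogentisate 1,2-dioxygenase, which opens the aromatic ring further down the same route. It had 555, 398 and 285 normalized counts on HPLS, EPS and LPHS in replicate 1. In replicate 2 it had 198, 118 and 163. LPHS was below HPLS in both, EPS was the lowest diet in replicate 2, and all replicate 1 libraries were above all replicate 2 libraries. The LPHS-HPLS difference was -0.62 (SE 0.74; limma adjusted p 1, and 0.655 with the block), and without the block and without HPLS replicate 1 it was 0.12.

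Oat had the 2nd largest LPHS-HPLS difference among the 8 *D. melanogaster* genes, but the replicates disagreed on where it arose. Oat (FBgn0022774, chromosome 3L, 19647280 to 19649851, minus strand) encodes ornithine aminotransferase, which turns ornithine towards glutamate and proline. It had 6835, 3922 and 3913 normalized counts on HPLS, EPS and LPHS in replicate 1 and 8100, 4567 and 2140 in replicate 2. Both HPLS libraries were above the other 4. From EPS to LPHS the difference was 0.00 in replicate 1 and -1.09 in replicate 2, while from HPLS to EPS it was -0.80 and -0.83. LPHS-HPLS was -1.36 (SE 0.33; limma adjusted p 1, and 0.351 with the block). Without LPHS replicate 1 the blocked difference was -1.92, and without LPHS replicate 2 it was -0.81.

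slgA (FBgn0003423, chromosome X, 21374002 to 21385159, plus strand) encodes proline dehydrogenase, the first step of proline breakdown. It had 1458, 1879 and 1520 normalized counts on HPLS, EPS and LPHS in replicate 1 and 1573, 1414 and 1718 in replicate 2. EPS was the highest diet in replicate 1 and the lowest in replicate 2, and the LPHS-HPLS difference was 0.09 (SE 0.21; limma adjusted p 1, and 0.951 with the block). On the opposite strand 229 bases (5.3%) of its exons overlap asRNA:CR45611, whose reads cannot be told apart from those of slgA in a library that does not mark strand. That antisense gene had at most 1.10 normalized counts.

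None of the 3 enzymes that pass amino groups through glutamate passed the limma test between diets. Gdh (FBgn0001098, chromosome 3R, 23935958 to 23943101, minus strand), glutamate dehydrogenase, had 23139, 22328 and 14376 normalized counts on HPLS, EPS and LPHS in replicate 1. Replicate 2 had 15584, 11714 and 16160. LPHS was the lowest diet in replicate 1 and the highest in replicate 2, with differences from HPLS of -0.69 and 0.05 and a mean of -0.32 (SE 0.39; limma adjusted p 1, and 0.881 with the block).

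The cytosolic aspartate aminotransferase Got1 (FBgn0001124, chromosome 2R, 16138352 to 16141928, plus strand) had 7506, 7028 and 7067 normalized counts on HPLS, EPS and LPHS in replicate 1. In replicate 2 the counts were 8670, 6876 and 7572. The 6 libraries lay within a narrow range and the LPHS-HPLS difference was -0.14 (SE 0.20; limma adjusted p 1, and 0.919 with the block).

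The mitochondrial enzyme Got2 (FBgn0001125, chromosome 2L, 1984512 to 1987758, minus strand) had 11363, 11932 and 11416 normalized counts on HPLS, EPS and LPHS in replicate 1. Those of replicate 2 were 6641, 6513 and 9234. All replicate 1 libraries were above all replicate 2 libraries, and LPHS was above HPLS by more in replicate 2 than in replicate 1. The LPHS-HPLS difference was 0.24 (SE 0.41), with 0.01 and 0.48 in the replicates (limma adjusted p 1, and 0.868 with the block).

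Over the 8 *D. melanogaster* genes, limma called 0 in LPHS-HPLS with diet alone and 0 with the block, against 0% of the 12324 genes tested in either fit. At an unadjusted p under 0.05 there were 2 members with diet alone (Sardh and Oat) and 4 with the block (Sardh, Hn, hgo and Oat), against 179 and 941 of all genes. EPS-HPLS and LPHS-EPS also had 0 members called in both fits, against 0% of all genes. With diet alone each had 0 members at an unadjusted p under 0.05, against 42 and 25 of all genes. With the block they had 2 and 1, against 314 and 240 of all genes. On the sucrose trend 0 members were called with diet alone (0% of all genes) and 1 with the block, Sardh, against 0.0487% of all genes. The trend had 2 members at an unadjusted p under 0.05 with diet alone and 4 with the block, against 319 and 1284 of all genes. The tests of edgeR and DESeq2 were not run in *D. melanogaster*, where not all values could be brought back to whole fragments.

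By direction, 5 of 8 genes (Sardh, Hn, hgo, Oat and Got1) were lower on LPHS than on HPLS in both replicates, as were 26.1% of all genes tested. The order HPLS, EPS, LPHS held in both replicates for 3 of 8 (Sardh, Hn and Oat), against 4.67% of all genes. In replicate 1 its last step, LPHS-EPS, was only -0.003 for Oat and -0.05 for Hn, against -0.53 for Sardh. Both LPHS libraries lay below both HPLS libraries for 2 of 8 (Sardh and Oat), against 10.5%. The median LPHS-HPLS difference of the 8 genes was -0.47, and that of all genes tested was 0.00, of which the lowest 5% were below -0.56. For EPS-HPLS the member median was -0.32, with 6 of 8 below 0, against 49.8% of all genes.

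Per kilobase of exon on HPLS, the order of mean levels was Gdh (8263 ± 2280 normalized counts per kb), Got2 (5191 ± 1926), Oat (4975 ± 596), Got1 (4569 ± 465), Hn (1564 ± 1120), slgA (352 ± 18.9), Sardh (327 ± 122) and hgo (261 ± 175; SD, n = 2 each). The neighbours Got2, Oat and Got1 differed by less than their spread, and so did slgA, Sardh and hgo. On LPHS the order was Gdh (6516 ± 539), Got2 (5955 ± 890), Got1 (4135 ± 201), Oat (2016 ± 835), Hn (859 ± 335), slgA (376 ± 32.6), hgo (155 ± 59.6) and Sardh (114 ± 36.3). Oat thus passed from the level of the aspartate aminotransferases on HPLS to below both of them on LPHS, while Gdh and Got2, and again hgo and Sardh, differed by less than their spread.

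The replicate number separated several of these genes. With diet in the model, 4 of 8 *D. melanogaster* genes differed between replicate 2 and replicate 1 in limma, 2 higher and 2 lower in replicate 2, against 15.9% of all genes tested. Hn was higher by 1.25 (SE 0.17; limma adjusted p 0.0127) and Sardh by 0.71 (SE 0.12; limma adjusted p 0.0181). In contrast, hgo differed by -1.34 (SE 0.20; limma adjusted p 0.0154) and Got2 by -0.65 (SE 0.16; limma adjusted p 0.0479). For these 4 genes the sign was the same on all 3 diets. The other 4 were not called: Gdh differed by -0.44 (limma adjusted p 0.224) and Oat, slgA and Got1 by -0.14, -0.04 and 0.09.

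Hn and hgo kept their call in each of the 6 fits that left out 1 library. Sardh and Got2 lost theirs without HPLS replicate 1 (limma adjusted p 0.125 and 0.282), EPS replicate 1 (0.0622 and 0.168), HPLS replicate 2 (0.141 and 0.256) or EPS replicate 2 (0.062 and 0.149). The call on Got2 was also lost with no filter on low values (limma adjusted p 0.0523). In *D. mojavensis*, 1 of 2 genes was called, against 13.3% of all genes: GI23443 differed by -0.41 (SE 0.10; limma adjusted p 0.04), a call lost without EPS replicate 1 (0.31), EPS replicate 2 (0.283), LPHS replicate 1 (0.143) or LPHS replicate 2 (0.147). GI23785 differed by -0.13 (limma adjusted p 0.72). Among the tissue markers, 5 of 6 glue genes were also called higher in replicate 2 of *D. melanogaster*, with a median difference of 3.55. Of all *D. melanogaster* genes tested, 15.9% were called in either direction. Also called were 2 of 6 fat body and 1 of 3 neuron markers (higher), 1 of 4 muscle markers (lower) and 2 of 5 midgut markers (1 in each direction). Of the 2 adult reproductive markers tested, 1 was called higher. The part of these markers in the differences of Hn, hgo, Sardh and Got2 was not tested.

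**Figure D3:**
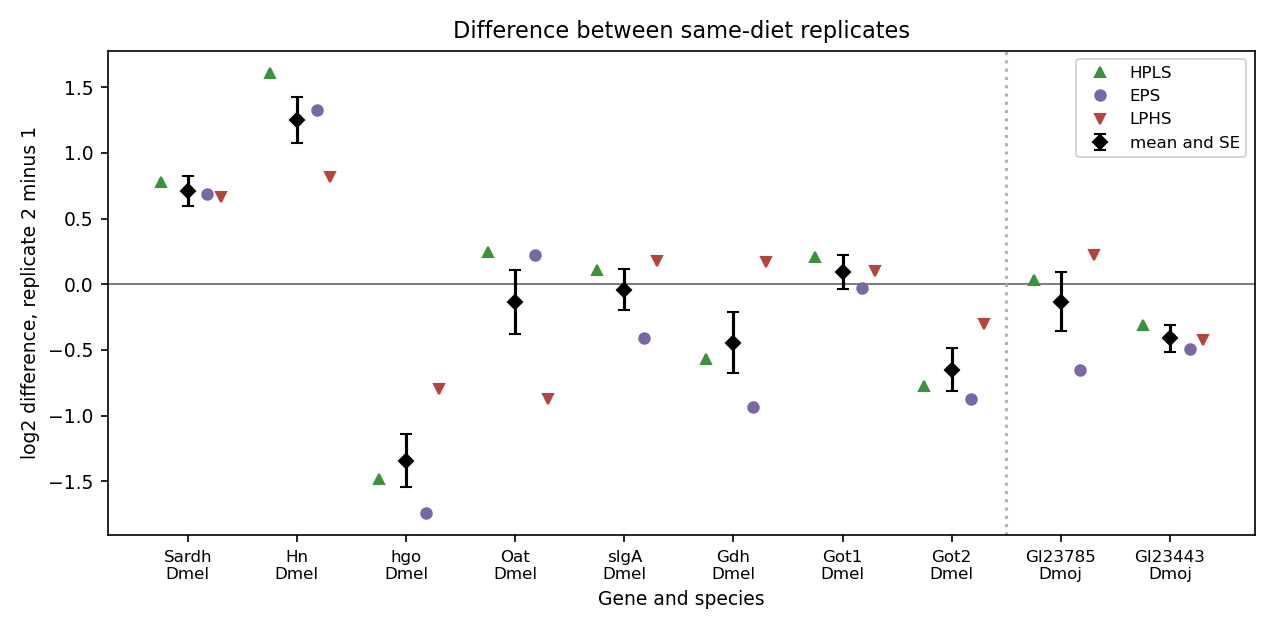
The replicate 2 minus replicate 1 difference (y axis, log2) of each gene (x axis), with triangles and circles for the 3 diets and diamonds with bars for the mean and SE. Hn and Sardh lie above 0 and hgo and Got2 below 0 on all 3 diets, while Oat, slgA and Gdh lie on both sides.

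The other genes of these pathways in *D. melanogaster* were drawn from 6 lists with 40 genes, of which 38 were found in the table and 37 passed the filter on low values. In LPHS-HPLS limma called 0 of 37 with diet alone and 0 with the block. The differences were above 0 for 22 and below 0 for 15, with a median of 0.02, and 11 were below 0 in both replicates and 7 above. Of all genes tested, 49.3% were below 0 and 26.1% were lower on LPHS in both replicates. Of the 11 glycine, serine and sulphur amino acid genes, 6 were below 0 in both replicates. The count was 2 of 5 for phenylalanine and tyrosine and 1 of 10 for branched chain and lysine. It was 1 of 5 for each of the glutamate and proline lists and 0 of 1 for tryptophan. Among these 11 genes the largest differences are given next. The gene with the largest difference among them was Gnmt, the glycine N-methyltransferase that makes sarcosine, the substrate of Sardh. It had 3218, 1012 and 1307 normalized counts on HPLS, EPS and LPHS in replicate 1 and 7316, 4627 and 3048 in replicate 2. LPHS-HPLS was -1.28 (limma adjusted p 1, and 0.351 with the block), with replicate 2 again above replicate 1 on every diet. Next was ppl, the H protein of the glycine cleavage system, with 3001, 2179 and 1762 normalized counts in replicate 1 and 2421, 1662 and 1248 in replicate 2, in the same order of diets as Sardh, and an LPHS-HPLS difference of -0.86 (limma adjusted p 1, and 0.266 with the block).

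In the phenylalanine and tyrosine list, 3 of 5 genes were below 0, against 49.3% of all genes tested. Tat, the tyrosine aminotransferase between the steps of Hn and hgo, had an LPHS-HPLS difference of -0.78 (-0.62 and -0.93 in the replicates; limma adjusted p 1, and 0.327 with the block). Hpd, 4-hydroxyphenylpyruvate dioxygenase, which makes the substrate of hgo, had -1.52 in replicate 1 and 0.51 in replicate 2. Between replicates 3 of the 5 listed genes were called in limma, against 15.9% of all genes tested. Over all lists 7 of 37 were called. Tat was higher in replicate 2, as Hn was (0.84; limma adjusted p 0.0141), while Hpd (-2.53; limma adjusted p 0.0134) and Faa, fumarylacetoacetase (-1.38; limma adjusted p 0.0221), were lower, as hgo was. GstZ1 and GstZ2 were not called (-0.17 and -0.29; limma adjusted p 0.358 and 0.125). In the remaining lists the 2 largest LPHS-HPLS differences were 0.79 for Odc1, ornithine decarboxylase, and -0.30 for arg, arginase, among proline, arginine and ornithine genes. They were -0.87 for Srr, serine racemase, and 0.60 for Gs1, a glutamine synthetase, in the glutamate list. Among branched chain and lysine genes they were 0.51 for CG15093 and 0.47 for Dbct, and the tested tryptophan gene v, tryptophan dioxygenase, had -0.06. For CG15093, Dbct, Gs1 and v the replicates had opposite signs, and none of these 7 genes passed the test (limma adjusted p 1 for each).

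**Figure D4:**
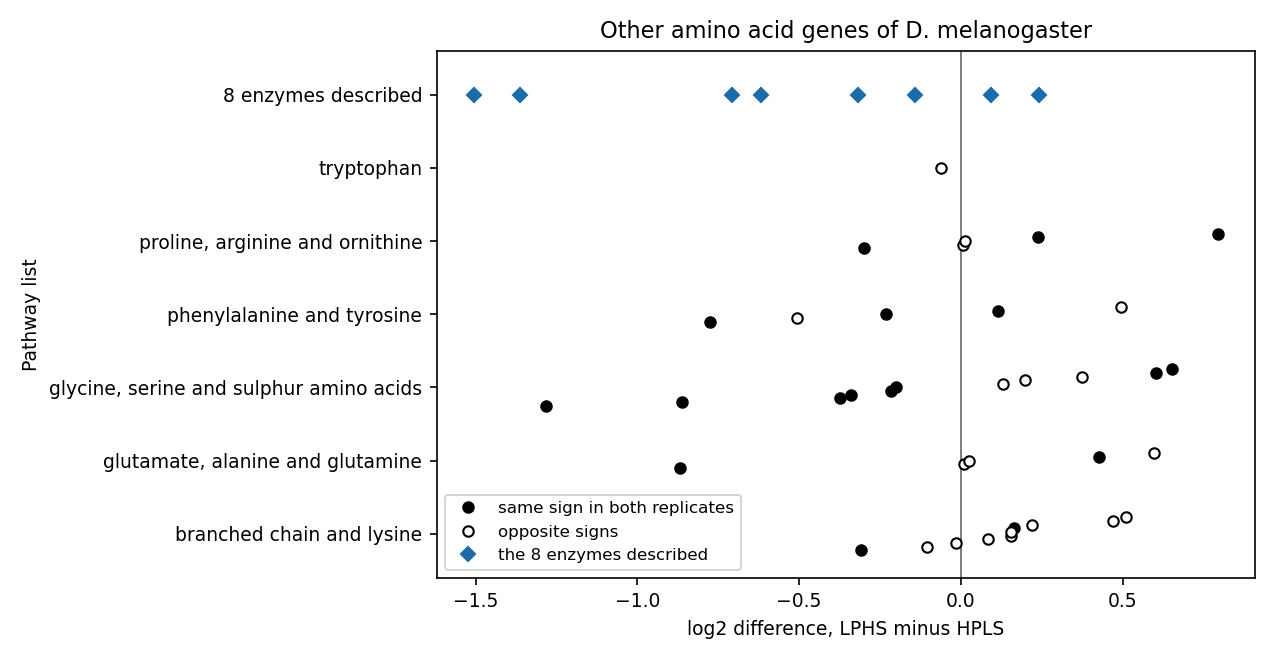
The LPHS minus HPLS difference (x axis, log2) of the 37 pathway genes tested in *D. melanogaster* by list (y axis), filled where both replicates have the same sign and open where they differ, and the 8 enzymes described (diamonds). Gnmt (-1.28) is the lowest of the 37, and Sardh (-1.51) and Oat (-1.36) lie below it.

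Across the 6 *D. melanogaster* libraries, the pattern of Sardh was most like those of B4 (Pearson's r 0.995), Reps (0.992) and Sodh1 (0.992), a sorbitol dehydrogenase. These coefficients describe log2 values over 6 libraries that share diets and replicate numbers. The LPHS-HPLS differences of the 3 were -0.31, -0.22 and -0.99. Among the other members, r with Sardh was 0.80 for Hn, 0.74 for Oat and 0.74 for Got1, and it was -0.66 for Got2 and -0.13 for hgo. In *D. mojavensis*, r between GI23785 and GI23443 was 0.94, and the genes nearest to each had no name in the annotation used here.

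Of 3 further nitrogen enzymes in the *D. mojavensis* annotation table, also called by the study on these libraries, limma called 0 with diet alone, against 0.0206% of all genes. With the block it called 2, GI21508 and GI12353, against 5.51%, and both were higher on LPHS than on HPLS in both replicates. GI12353, annotated as argininosuccinate lyase, had means of 1980 ± 866 on HPLS, 4270 ± 2530 on EPS and 5052 ± 2619 on LPHS (SD, n = 2). GI21508, annotated as ethanolamine-phosphate phospho-lyase, had 126, 339 and 820 normalized counts on HPLS, EPS and LPHS in replicate 1 and 206, 1147 and 1864 in replicate 2, the opposite order to GI23785 and GI23443. Its LPHS-HPLS difference was 2.93 (limma adjusted p 0.258, and 0.00246 with the block). GI23973, annotated as D-amino-acid oxidase, had an LPHS-HPLS difference of -2.96 in replicate 1 and -0.56 in replicate 2 (limma adjusted p 0.37, and 0.0863 with the block).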

How the data were processed

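For the 2 species described, the authors mapped read pairs with TopHat2 to the FlyBase genome (Release 6 in *D. melanogaster*). They then ran Cuffdiff and deposited 1 signal value per gene and library. Most of these values are fragment counts multiplied by 1 step per library: searched for between 0.5 and 1.5 with a tolerance of 0.01 steps, the steps were 0.639 to 1.28 in *D. melanogaster* (96.4% to 97.0% of values whole) and 0.932 to 1.10 in *D. mojavensis* (100% whole). Whole fragments were therefore recovered, and edgeR and DESeq2 run, in *D. mojavensis* only. Positions of *D. mojavensis* genes and the *D. arizonae* table were not analysed here. Of 17239 *D. melanogaster* identifiers, 16939 were matched to symbols. The library kit (TruSeq RNA v2) does not mark strand.

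The test was limma (version 3.58.1) with a trend on log2 of the TMM-scaled value plus a pseudocount of 1, with the 3 diets of a species in 1 fit, after filterByExpr of edgeR (version 4.0.16, minimum count 10). This left 12324 and 9724 genes, and 8 of 8 and 2 of 2 members. An adjusted p (Benjamini-Hochberg, all genes tested) of at most 0.05 was a call. The trend is given over its 24 g span, so its size equals LPHS-HPLS. Since yeast falls as sucrose rises, it is equally a trend on falling yeast. Same-numbered libraries of different diets deviated together from the diet means (correlation across genes 0.548 to 0.708 in *D. melanogaster* and 0.518 to 0.702 in *D. mojavensis*), so fits with the replicate number as a block are given beside each result where they change a call. Replicates may share more than their label states, so p-values measure the spread between these libraries. Alternatives were other pseudocounts (0.5 and 5), no filter, RLE scaling, 2 diets only, edgeR's quasi-likelihood test, DESeq2 (version 1.42.0), and each library left out. The tests were run on simulated data first. R was version 4.3.3 and Python 3.11.15. Precision is lowest for genes with few fragments, such as GI23785 on LPHS.

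Genes named are the 10 members, the 2 of each pathway list with the largest absolute LPHS-HPLS difference, and the 3 most correlated with Sardh, GI23785 and GI23443. Faa, GstZ1, GstZ2 and GI12353 were added after their values were seen, to complete their lists. Members and lists were chosen with earlier results of these data known. Loci and exon lengths are from the Ensembl annotation of Release 6.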

Additional observations from a re-analysis of the deposited data

How the results depend on the processing

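With 2 libraries per diet, the calls depend on the replicate block. The block raised the members called on the *D. melanogaster* sucrose trend from 0 to 1, and in *D. mojavensis* in LPHS-HPLS from 1 to 2, in EPS-HPLS from 0 to 1 and on the trend from 1 to 2. It raised the *D. mojavensis* genes called in LPHS-HPLS from 2 to 536. For the same comparison the count was 4 with only the 2 diets, 0 with edgeR's quasi-likelihood test (990 genes at an unadjusted p under 0.05, and 997 in limma) and 550 with its replicate block, and 197 with DESeq2 and 574 with its block. The quasi-likelihood test called 0 *D. mojavensis* members in LPHS-HPLS without the block, and with it 2, with 1 in EPS-HPLS and 2 on the trend. With the block its shares of all genes were 5.66%, 0.134% and 9.03% in that order. DESeq2 called 2 in LPHS-HPLS, 1 in EPS-HPLS (GI23785) and 2 on the trend, and 0 between replicates. Its shares of all genes were 2.03%, 0.144%, 3.33% and 9.10% in that order. With the block DESeq2 called 2 in LPHS-HPLS, 1 in EPS-HPLS (GI23443), 2 on the trend and 1 in LPHS-EPS. The shares of all genes were then 5.90%, 0.854%, 9.50% and 0.432%. It gave no adjusted p for GI23785 in EPS-HPLS. Pseudocount 5 moved the difference between GI23785 and Sardh from -2.35 to -1.97. The cause of these shifts was not tested.

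Without 1 library, with and without the block together, members called in *D. melanogaster* ranged from 0 to 3 in LPHS-HPLS and on the trend and from 2 to 5 between replicates, and genes called in LPHS-HPLS from 0 to 347. In *D. mojavensis* members called ranged from 0 to 2 in LPHS-HPLS, in EPS-HPLS and on the trend, from 0 to 1 in LPHS-EPS and between replicates, and genes called from 0 to 1645. The LPHS-HPLS differences that changed sign in such fits were those of Hn (-1.51 to 0.069), hgo (-1.39 to 0.12), slgA (-0.070 to 0.25), Gdh (-0.78 to 0.13), Got2 (-0.18 to 0.63), CG15093 (-0.18 to 1.19), Dbct (-0.15 to 1.08), Gs1 (-0.14 to 1.301), Hpd (-2.36 to 1.32) and v (-0.36 to 0.21). So did Oat in LPHS-EPS (-1.10 to 0.0032) and, between replicates, Oat (-0.34 to 0.23), slgA (-0.17 to 0.14) and GI23785 (-0.31 to 0.13). The quasi-likelihood test and DESeq2 were not run in *D. melanogaster*.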
